A study of Mus musculus with 11 samples.

Results

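The collagen and laminin genes of the islet matrix were taken from the count table by their symbols, as every gene named *Col* with a number and a chain number or *Lama*, *Lamb* or *Lamc* with a number. They were 55 of the 55401 genes in the table, 44 collagen genes and 11 laminin genes, and no measured value entered the choice. The data were RNA-seq counts from 11 libraries of cells sorted by FACS from islets of 4 male C57BL6/J mice fed chow, with an age of 10 weeks in the sample labels. All mice carried a rat insulin promoter (RIP)-Cre transgene, a STOP-tdTomato reporter and an *Nnat*-EGFP transgene, so tdTomato marked cells in which the insulin promoter had been active and eGFP reported the promoter of *Nnat* (encoding neuronatin). Non-beta cells were those without tdTomato, and a library marked beta can hold any cell in which this Cre was active. By the labels, 4 libraries held NNAT-positive beta cells, 4 held NNAT-negative beta cells and 3 held non-beta cells. The replicate number of a library names its mouse, and there was no non-beta library from mouse 4.

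Collagens are trimeric proteins of the extracellular matrix. The chains of types I, III and V form the fibrils of connective tissue, which fibroblasts and stellate cells make, type IV forms the sheet of basement membranes and type VI forms beaded microfilaments next to them. Laminins are cross-shaped trimers of one alpha, one beta and one gamma chain and are the other main scaffold of basement membranes. In the mouse islet the basement membrane lies along the capillaries, and endothelial cells are known to supply most of it to beta cells, which bind it through integrins and other receptors. A trimer needs all of its chains in the same cell, so the levels of partner chains are given together.

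*Col4a1* and *Col4a2* share promoter sequence. *Col4a1* (chr8:11198423-11312826, minus strand) and *Col4a2* (chr8:11312805-11449287, plus strand) encode the partner chains of the common type IV collagen and lie head to head, with annotated starts 21 bp apart and 22 bp of overlap between the gene ends (GRCm38, gencode annotation). Their RefSeq promoter windows, 250 bases before to 50 after each start, are shown because the 2 genes differed in the beta cell libraries although they share this sequence. Capitals mark the 78 bases that both windows hold, which read as the reverse complement of each other. The window of *Col6a6*, the member with the highest level in beta cells, is shown for comparison, with the letters GGGCGG or CCGCCC in capitals. The windows are chr8:11312777-11313076 (minus strand), chr8:11312555-11312854 (plus strand) and chr9:105828036-105828335 (minus strand) in GRCm38.p6, written 5′ to 3′.
Col4a1: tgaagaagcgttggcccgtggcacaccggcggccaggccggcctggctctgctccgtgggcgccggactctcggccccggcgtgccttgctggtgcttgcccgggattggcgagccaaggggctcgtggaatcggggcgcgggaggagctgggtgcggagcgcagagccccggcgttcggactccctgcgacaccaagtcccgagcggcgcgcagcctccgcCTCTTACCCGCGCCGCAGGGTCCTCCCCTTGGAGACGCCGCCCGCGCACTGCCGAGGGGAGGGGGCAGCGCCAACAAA
Col4a2: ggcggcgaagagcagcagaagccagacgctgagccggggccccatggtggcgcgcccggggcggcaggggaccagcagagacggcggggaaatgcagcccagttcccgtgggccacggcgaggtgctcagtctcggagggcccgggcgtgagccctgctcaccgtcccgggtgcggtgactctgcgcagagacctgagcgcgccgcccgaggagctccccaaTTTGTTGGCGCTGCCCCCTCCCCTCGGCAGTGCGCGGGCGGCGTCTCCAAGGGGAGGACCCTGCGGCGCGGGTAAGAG
Col6a6: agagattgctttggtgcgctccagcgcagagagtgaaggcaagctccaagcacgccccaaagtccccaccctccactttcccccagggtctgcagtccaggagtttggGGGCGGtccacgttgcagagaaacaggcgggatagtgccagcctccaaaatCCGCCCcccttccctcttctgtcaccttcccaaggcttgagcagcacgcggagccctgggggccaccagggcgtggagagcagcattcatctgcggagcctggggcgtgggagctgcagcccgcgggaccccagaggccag
G and C made up 74% of the *Col4a1* window, 73.7% of the *Col4a2* window and 65% of the *Col6a6* window, against a median of 52.7% over 32851 windows of the same length. On either strand, the GC box letters GGGCGG occurred 1 time in the *Col4a1* window and 3 times in the *Col4a2* window, with 1 match in the shared bases, and 2 times in the *Col6a6* window. They occurred in 35.7% of all windows. The letters CCCTCCCC, known as the CTC box of this gene pair, occurred 1 time, inside the shared bases, in both type IV windows and 0 times in that of *Col6a6*, and 10.8% of all windows held them. CCAAT occurred 1 time in each type IV window, outside the shared bases for *Col4a1* and across their edge for *Col4a2*, 0 times in that of *Col6a6* and in 37.4% of all windows. Of the 55 members, 40 had a window in the RefSeq table.

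Total counts were between 30420352 and 43238376 per library. Values below are CPM, a library's counts of a gene per 1000000 counts, with TMM-scaled library sizes, and 3 counts correspond to at most 0.0986 CPM in any library. *Nnat* itself went against the labels. It read 46.0 to 101 CPM in the libraries labelled NNAT-positive and 66.5 to 153 CPM in those labelled NNAT-negative, and in 4 of 4 mice the library labelled NNAT-positive had the lower value (log2 fold change −0.62, edgeR quasi-likelihood test, adjusted *p*=0.443). A supplementary table of the study heads the 8 beta cell columns with the opposite fraction. The fractions are therefore called by their labels, and each direction between them would turn round under the other naming. The beta cell markers *Ins1*, *Ins2*, *Mafa*, *Nkx6-1*, *Pdx1*, *Slc2a2* and *Ucn3* were all higher in the beta cell libraries at the call used here, with a sum of 161270 to 399380 CPM against 8962 to 23050 CPM in non-beta cells. The non-beta libraries held alpha, delta and PP cell markers together with markers of acinar (14236 to 55179 CPM summed), endothelial (2378 to 2712 CPM), stellate and pericyte (1527 to 3165 CPM) and leukocyte (1228 to 2720 CPM) cells. In these bulk libraries, fewer cells of a type and less RNA per cell cannot be told apart.

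The first comparison was between all beta cell libraries and the non-beta libraries, and asked in which sorted cells the matrix genes are expressed. Members took 0.743% to 1.43% of the counts of a non-beta library and 0.0173% to 0.0422% of those of a beta cell library. Their summed level was 12621, 7395 and 9257 CPM in the non-beta libraries of mice 1, 2 and 3, and between 199 and 378 CPM in the 8 beta cell libraries, so the beta mean was 2.73% of the non-beta mean. The edgeR test with the mouse as a block covered 48 members, and 7 had too few counts. With a limit of 0.01 on the adjusted *p* and of 2-fold on the change, 42 of the 48 were lower in beta cells and 0 were higher, where 18.9% and 6.22% of all 17424 tested genes were called lower and higher (25.1% together). At an unadjusted *p* below 0.05, 1 member, *Col6a6*, was higher, as were 24.7% of all genes, and DESeq2 also called 0 members higher. A member that is low in beta cells could pass the filter on low counts only through the non-beta libraries, so these counts are a description. For the same 48, the median level in beta cells was 0.344% of that in non-beta cells, against 99.1% over all tested genes. For 38 of the 48, every non-beta library was above every beta cell library, which held for 26.2% of all genes.

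**Figure D1:**
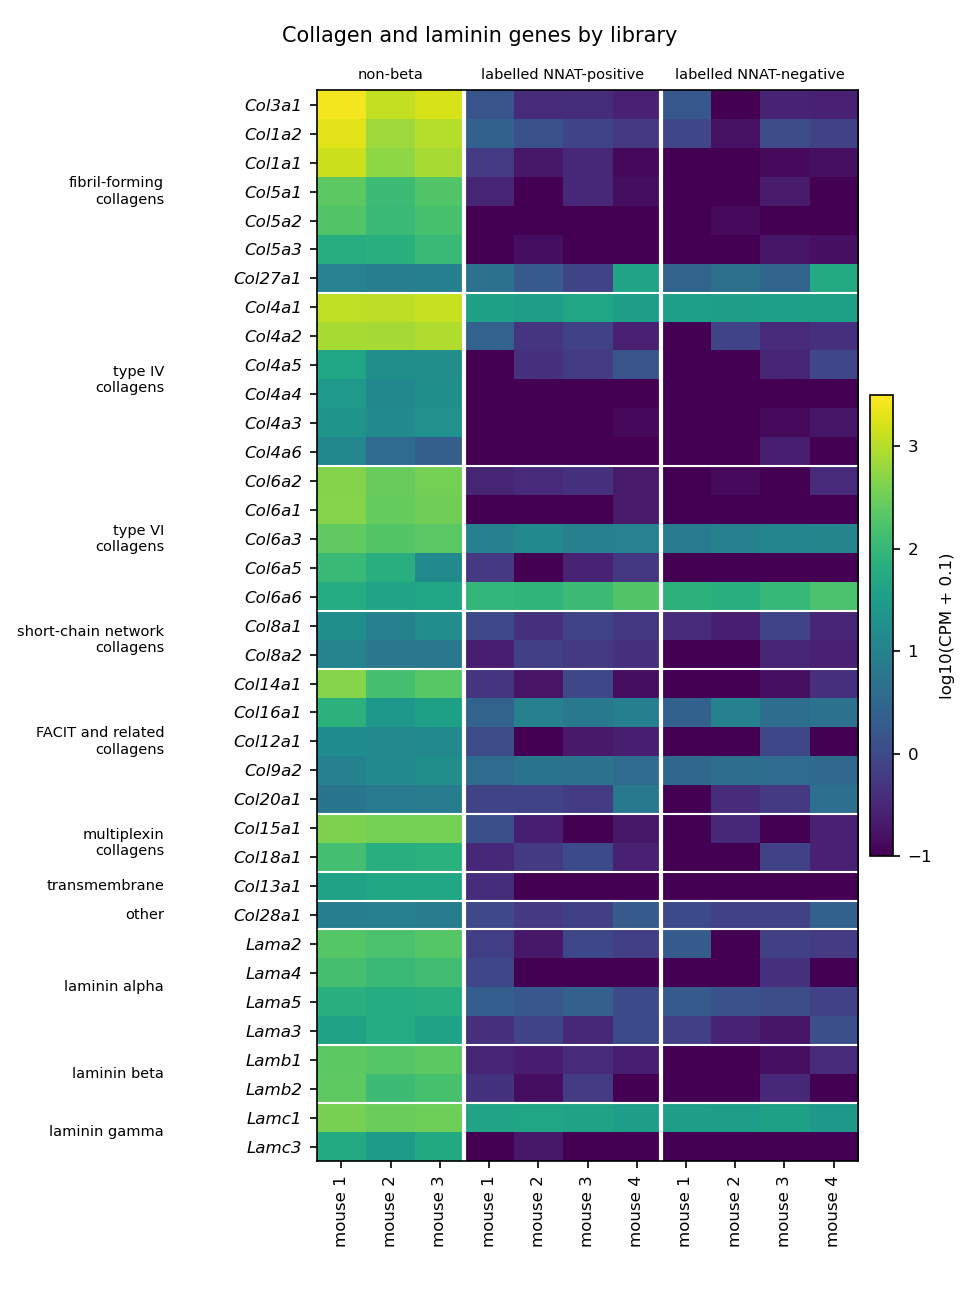
Level of members with a mean of at least 5 CPM in a fraction, as log10(CPM + 0.1) in colour, by library in columns and by chain class in rows. The non-beta columns are bright for the fibril-forming, type IV, type VI and laminin chains, and in the beta cell columns *Col4a1*, *Col6a3*, *Col6a6* and *Lamc1* stand out in all 8 libraries.

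The fibril-forming chains of types I, III and V were among the more abundant members in non-beta cells and reached at most 2.36 CPM in a beta cell library, while the cartilage chains *Col27a1* and *Col11a2* of the same class reached 57.4 and 14.5 CPM in beta cells of mouse 4. *Col3a1*, the chain of type III collagen, read 2595, 1214 and 1672 CPM in the non-beta libraries of mice 1, 2 and 3 and at most 1.64 CPM in a beta cell library. *Col1a2* and *Col1a1*, the partner chains of type I collagen, read 1960, 704 and 989 CPM and 1434, 542 and 825 CPM, against at most 2.36 and 0.534 CPM in beta cells. In all 3 of these genes the order of the mice was the same, with mouse 1 highest and mouse 2 lowest. The type V chains, which nucleate and thin the fibrils, had 233, 121 and 189 CPM for *Col5a1*, 193, 111 and 157 CPM for *Col5a2* and 62.3, 72.1 and 107 CPM for *Col5a3*. *Col5a2* had 1 count in the 8 beta cell libraries together, and its non-beta level was 45997 times as high, with a counting interval of 8255 to 1816880. *Col11a1* had 0 counts in beta cells and 0.592 to 1.56 CPM in non-beta cells, at least 96.2-fold higher with the floor of 3 counts over the 8 libraries, and was not called (adjusted *p*=0.0111, edgeR). *Col2a1* and *Col24a1*, collagen genes of cartilage and developing bone, were at 0 in non-beta cells, had 12 and 2 counts in all 8 beta cell libraries and were not tested.

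Type IV collagen is the network of basement membranes. *Col4a1* (ENSMUSG00000031502.11) read 1185, 1110 and 1311 CPM in non-beta cells and *Col4a2* (ENSMUSG00000031503.13) 825, 790.3 and 917 CPM. Both varied little among the mice, by 1.18 and 1.16 times from the lowest to the highest library, where *Col3a1* varied by 2.14 times. The chains of kidney, lung and cochlear basement membranes were present at lower levels: *Col4a5* read 43.8, 16.5 and 16.9 CPM, *Col4a4* 26.7, 12.6 and 17.3 CPM, *Col4a3* 21.1, 14.7 and 18.6 CPM and *Col4a6* 12.5, 3.58 and 2.21 CPM. *Col4a3* and *Col4a4* are also head to head, with starts 72 bp apart, and read alike per kb of exon in non-beta cells (ratio 1.02). *Col4a4* had 0 counts in all 8 beta cell libraries, at least 1906-fold lower than in non-beta cells with the same floor, and *Col4a3* had 5 counts. All 6 type IV chains were called lower in beta cells, where 18.9% of all tested genes were.

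Type VI chains split into 2 patterns. *Col6a1* and *Col6a2*, the obligate partner chains of every type VI trimer, read 490.4, 276 and 330.5 CPM and 466, 284 and 359 CPM in non-beta cells. *Col6a1* was at 0 in 7 of 8 beta cell libraries, with 5 counts in the library labelled NNAT-positive of mouse 4, and *Col6a2* did not exceed 0.34 CPM. *Col6a3*, the long chain that completes the common trimer, read 251, 197 and 220.1 CPM in non-beta cells. *Col6a5*, which can replace it, varied 8.15 times among the non-beta libraries, with 113, 69.5 and 13.8 CPM. *Col6a6*, a second such chain and the neighbour of *Col6a5*, was the exception of the family and is described with the members detected in beta cells. *Col6a4* stayed at or below 1.30 CPM in every library and was not called.

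Among the remaining collagens, *Col15a1* and *Col18a1*, which lie at the outer face of basement membranes, read 413, 358 and 369.8 CPM and 141, 70.0 and 74.9 CPM in non-beta cells and at most 1.15 CPM in beta cells. *Col14a1*, a fibril-associated collagen, had 480.2, 148 and 211 CPM, with mouse 1 again highest. The transmembrane collagen gene *Col13a1* read 39.3, 48.8 and 47.4 CPM, and its only counts in beta cells were 10 in the library labelled NNAT-positive of mouse 1. *Col12a1* (15.6, 12.9 and 13.7 CPM), *Col8a1* (17.1, 9.57 and 16.2 CPM) and *Col8a2* (10.4, 6.15 and 6.29 CPM) did not reach 1 CPM in any beta cell library. Below these, *Col23a1*, *Col26a1* and *Col7a1* were called lower in beta cells from means of 3.94, 3.54 and 3.57 CPM in non-beta cells, and so was *Col9a3* from 0.62 CPM. *Col25a1* and *Col19a1* were not called. *Col9a1*, *Col10a1* and *Col17a1* had 5, 7 and 38 counts in non-beta cells and 0 in beta cells, *Col22a1* had 1 count in beta cells, and none of these 4 was tested.

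Laminin alpha chains set the receptor binding of the trimer. *Lama2* read 202, 162 and 205 CPM in non-beta cells, *Lama4*, the chain of endothelial basement membrane, 147, 105 and 129 CPM, and *Lama5* 71.0, 61.1 and 63.5 CPM. *Lama3*, the epithelial alpha chain, read 38.4, 59.5 and 38.9 CPM, highest in mouse 2. In the same libraries the acinar marker sum was 14236, 55179 and 42911 CPM and the ductal marker sum 334, 302 and 484 CPM. A relation of *Lama3* to either was not tested. *Lama1*, the embryonic chain, was near 0 outside mouse 2 (1.93 CPM) and was not tested. The beta chains *Lamb1* (230.4, 202 and 231 CPM) and *Lamb2* (245, 122 and 156 CPM) were the common ones, and *Lamb3*, the epithelial one, read 3.79 to 4.60 CPM. Of the gamma chains, *Lamc1* led with 381, 303 and 323 CPM, and *Lamc3* read 56.1, 30.4 and 53.6 CPM. Of the 10 laminin genes tested, 9 were called lower in beta cells, where 18.9% of all tested genes were.

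The order of levels per kb of exon in non-beta cells began with *Col3a1* (186 CPM per kb), *Col4a1* (161), *Col1a1* (142), *Col4a2* (128), *Col1a2* (98) and *Col6a1* (83.5). Each of these overlapped its neighbour in the order over the 3 mice. Of the 38 members with a mean of at least 5 CPM in non-beta cells, 27 were highest in the library of mouse 1, among them 6 of the 7 fibril-forming chains. The fibril-forming sum was 6488, 2774 and 3949 CPM in mice 1, 2 and 3, and the stellate and pericyte marker sum was 3165, 1550 and 1527 CPM. The type IV sum was 2114, 1947 and 2284 CPM, and the endothelial marker sum was 2378, 2511 and 2712 CPM. With 3 libraries no test of these relations was made.

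A small group of members had counts in beta cell libraries well above 0. The mean over the 8 beta cell libraries was at least 1 CPM for 12 members and at least 5 CPM for 7. Endothelial, stellate and pericyte markers were taken as a guide to vascular and stromal RNA in the beta cell libraries. Of these, 19 of 20 were between 0 and 0.507% of their non-beta mean, with *Pdgfra* and *Lum* at 0 in all 8 libraries. The other, *Esam*, was at 8.43%. Of the 38 members with at least 5 CPM in non-beta cells, 22 lay at or below 0.507%, the highest marker share but for *Esam*, and 16 above it. The fibril-forming genes *Col3a1* (0.0276%), *Col1a1* (0.0130%) and *Col1a2* (0.0752%) were among the 22, as were *Col4a2* (0.0737%), *Lamb1* (0.0574%) and *Lama2* (0.346%). *Col4a1* (2.95%), *Col6a3* (4.5%), *Lamc1* (10.6%) and *Col16a1* (12.8%) were among the 16, and *Col4a1* and *Col6a3* were below *Esam*. The 16 also held *Col20a1*, *Col27a1* and *Col4a5*, which were highest in both libraries of mouse 4, and *Col12a1*, at 0 in 4 of 8 beta cell libraries. The alpha cell marker sum in beta cells was 1.47% of that in non-beta cells, the PP cell sum 7.95% and the delta cell sum 12.4%. The acinar sum was 0.949%, the leukocyte sum 3.51%, the Schwann cell sum 26.5% and the ductal sum 68.1% of the non-beta level. The Schwann cell marker *Sox10* was at 1.71% of non-beta, and *Krt7* gave 218 of the 254 CPM of the ductal sum in beta cells, with *Sox9* at 3.35%. Of the 6 ductal markers, 4 were called lower in beta cells and 2 were not, and 3 had a beta mean of at least 5 CPM. Of the 8 Schwann cell markers, 7 were called lower and 1 was not. The shares of *Col4a1*, *Col6a3* and *Lamc1* lay below that of the delta cell sum, and the part of any of these cells in the members' levels was not tested.

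**Figure D2:**
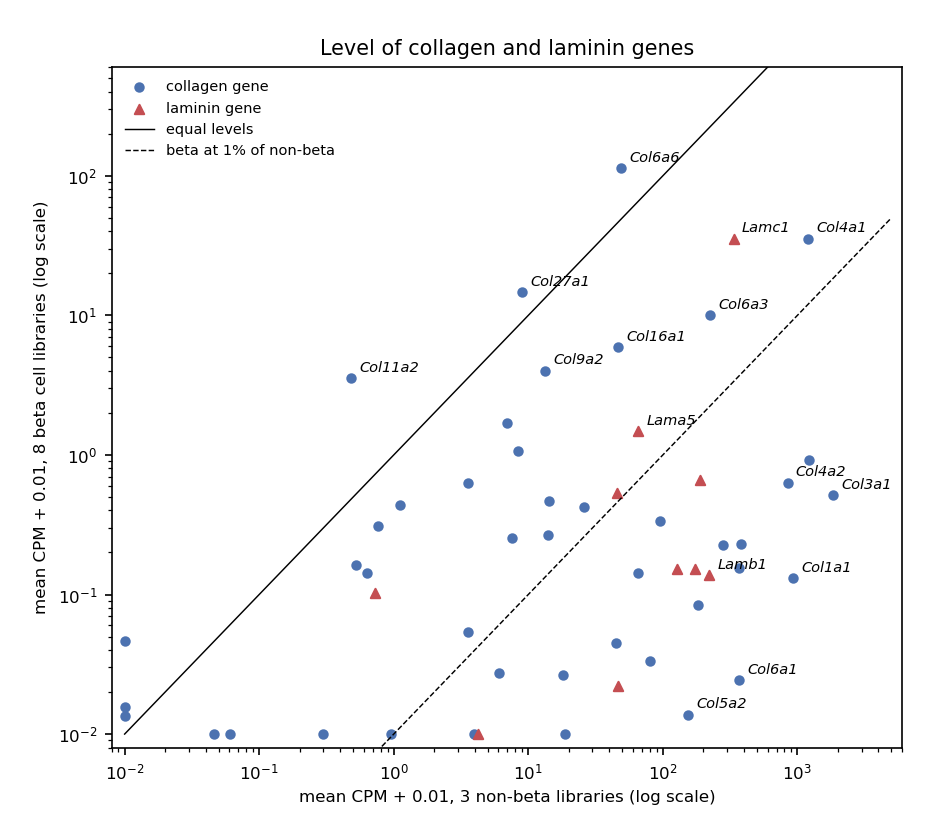
Mean CPM + 0.01 of collagen and laminin genes over the 8 beta cell libraries (vertical, log scale) against the mean over the 3 non-beta libraries (horizontal, log scale), with circles for collagen and triangles for laminin genes. Of the genes named in the plot, *Col6a6*, *Col27a1* and *Col11a2* lie above the line of equal levels. *Col27a1* and *Col11a2* do so with their values from mouse 4, which has no non-beta library. *Lamc1*, *Col4a1* and *Col6a3* lie between the line of equal levels and the dashed line at 1%, and *Col4a2*, *Col3a1*, *Col1a1* and *Lamb1* below the dashed line.

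*Col6a6* (ENSMUSG00000043719.14, chr9:105687809-105828160, minus strand) had the highest level of any member in beta cells. It read 93.9, 88.4, 122 and 190.0 CPM under the label NNAT-positive of mice 1 to 4 and 77.1, 69.5, 105 and 161 CPM in those labelled NNAT-negative. In non-beta cells it read 60.1, 42.7 and 43.4 CPM. All 8 beta cell libraries were above all 3 non-beta libraries, which held for 16.5% of all genes. The fitted log2 fold change was 0.91 (95% interval 0.60 to 1.21, edgeR adjusted *p*=0.000284), which is 1.87-fold and short of the 2-fold limit. The libraries labelled NNAT-positive alone were 2.06-fold above non-beta cells (adjusted *p*=0.000252, edgeR) and those labelled NNAT-negative alone 1.71-fold (adjusted *p*=0.00166), so the former passed the limit, as 6.13% of all genes did in that comparison and 6.18% in the latter. The change of the 8 libraries together passed it without the block (log2 fold change 1.21, adjusted *p*=0.00565, edgeR) and without mouse 1 (1.13, adjusted *p*=0.000185). Its neighbour *Col6a5* lies 27917 bp away in the same direction and did not exceed 0.45 CPM in beta cells.

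*Lamc1* (ENSMUSG00000026478.14; chr1:153218922-153332786, minus strand), the gamma chain of most laminins, read 41.6, 45.2, 39.2 and 32.6 CPM under the label NNAT-positive and 33.5, 31.4, 35.8 and 24.7 CPM in those labelled NNAT-negative. Every beta cell library was below the 303 to 381 CPM of the non-beta libraries. The log2 fold change was −3.16 (interval −3.35 to −2.96, edgeR adjusted *p*=4.03e-09).

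*Col4a1* was steady in beta cells, at 37.8, 31.5, 43.5 and 32.6 CPM under the label NNAT-positive and 35.2, 32.0, 34.5 and 36.3 CPM in those labelled NNAT-negative. Its log2 fold change against non-beta cells was −5.07 (interval −5.28 to −4.87, edgeR adjusted *p*=1.46e-09). *Col6a3* read 9.38, 13.8, 9.06 and 9.60 CPM and 7.47, 9.17, 10.7 and 11.1 CPM, with a log2 fold change of −4.5 (interval −4.86 to −4.14, adjusted *p*=1.81e-08, edgeR). Both were present in every beta cell library and far below every non-beta library.

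*Col16a1*, a fibril-associated collagen, read 2.39 to 9.41 CPM in beta cells and 77.7, 25.1 and 35.7 CPM in non-beta cells (log2 fold change −3.20 ± 0.51, SE). It was lowest in both beta cell libraries of mouse 1 and highest in the non-beta library of that mouse, and without mouse 1 the log2 fold change was −2.14. *Col9a2* read 3.07 to 5.40 CPM against 9.30, 14.0 and 16.6 CPM (−1.66 ± 0.20), and *Lama5* 0.683 to 2.33 CPM against its 61.1 to 71.0 CPM (−5.31 ± 0.15). *Col28a1* read 0.456 to 2.43 CPM in beta cells and 8.17, 9.14 and 7.99 CPM in non-beta cells (−3.64 ± 0.32). These 4 were called lower in beta cells by the edgeR test, and no beta cell library reached a non-beta library. Among the members described here, the order per kb in beta cells was *Col6a6* (12.4 CPM per kb), *Col4a1* (4.75), *Lamc1* (4.29), *Col9a2* (1.29), *Col27a1* (1.12), *Col16a1* (0.877) and *Col6a3* (0.839). Without mouse 4, *Col27a1* had 0.221 CPM per kb, below *Col16a1* (0.844) and *Col6a3* (0.830). *Col4a1* and *Lamc1* did not differ beyond the spread of the libraries in this order.

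The chains that a trimer would pair with these were at or near 0 in beta cells. Per kb, *Col4a1* was 1.26 times *Col4a2* in non-beta cells, and between 1.25 and 1.27 times in each of the 3 libraries. In beta cells *Col4a2* read 2.47, 0.384, 0.654 and 0.16 CPM under the label NNAT-positive and 0, 0.731, 0.25 and 0.328 CPM in those labelled NNAT-negative. *Col4a1* was 50.5 times *Col4a2* over the 8 libraries and at least 13.6 times in each library in which *Col4a2* had a count. The 22 bp that the 2 genes share are 0.295% of the exons of *Col4a1*. *Col4a2* was highest in the library labelled NNAT-positive of mouse 1. That library also had 2.47 CPM of *Plvap*, 1.46 CPM of *Kdr* and 2.75 CPM of *Flt1*. These endothelial genes did not exceed these values in any other beta cell library. The endothelial marker sum was 14.7 CPM there. It was 11.8 CPM in the library labelled NNAT-negative of mouse 1, where *Col4a2* was at 0. In that of mouse 2 it was 6.15 CPM, with *Col4a2* at 0.731 CPM, and the relation was not tested. Only 1 of the 10 endothelial markers had a mean of at least 1 CPM in beta cells. That marker had at least 5 CPM of the mean sum of 8.38 CPM, so the sum mostly follows 1 gene.

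For type VI collagen, *Col6a3* was 0.223 times and *Col6a6* 0.0637 times *Col6a1* per kb in non-beta cells. In beta cells a ratio could be formed only in the library labelled NNAT-positive of mouse 4, from the 5 counts of *Col6a1*, and was 30.8 for *Col6a3* and 795 for *Col6a6*. Over *Col6a2*, which had counts in more libraries, *Col6a3* was 0.42 times in non-beta cells and 47.9 times in beta cells per kb. The laminin beta chains *Lamb1*, *Lamb2* and *Lamb3* summed to 480, 329 and 392 CPM in the 3 non-beta libraries and to at most 0.759 CPM in a beta cell library. *Lamb1* read 0 to 0.262 CPM and *Lamb2* 0 to 0.497 CPM in beta cells, and *Lamb3* had 0 counts. *Lamc1* was 1.82 times *Lamb1* per kb in non-beta cells and 335 times in beta cells. The alpha chains summed to 390.3 to 459 CPM in non-beta cells and 1.46 to 4.40 CPM in beta cells, with *Lama5* and *Lama2* giving the most. *Lama3* read at most 1.15 CPM in beta cells.

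**Figure D3:**
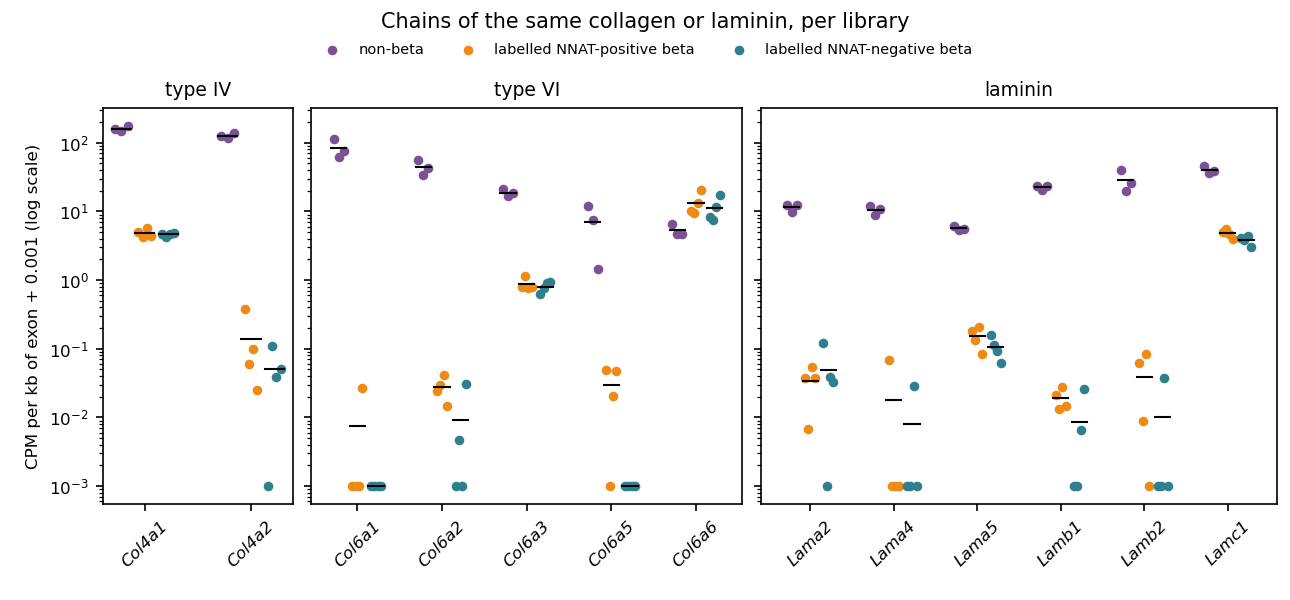
CPM per kb of exon + 0.001 (log scale) of the type IV chains *Col4a1* and *Col4a2*, 5 type VI chains and 6 laminin chains in each library, with the mean of each fraction as a line; points at the lowest level have 0 counts. *Col4a1* and *Col4a2* lie together in non-beta cells and apart in beta cells, and *Col6a3*, *Col6a6* and *Lamc1* lie above the other type VI and laminin chains in beta cells.

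The second comparison was between the beta cell fractions, and asked whether the matrix genes differ with the *Nnat* reporter. No member was called: 0 of 48 passed the adjusted *p* and fold limits in the edgeR test, against 8 of all 17424 genes (0.0459%). DESeq2 also called 0 members, and it called 86 of all 17424 genes. At an unadjusted *p* below 0.05, 7 members were higher in the libraries labelled NNAT-positive and 0 were lower, where 4.82% of all genes were higher and 0.746% lower. The 7 became 2 with the beta cell libraries alone. There *Col1a1*, *Col6a1*, *Col6a5* and *Col8a2* did not pass the filter on low counts and were not tested. The 7 became 4 without the block and 11 without mouse 3 or without this filter. The 0 lower became 2 without mouse 1 and 1 without mouse 2. In both directions together, 969 of 17424 genes reached this *p* in the main fit and 1016 of 14489 with the beta cell libraries alone. The counts were 688 of 17424 without the block, 933 of 18222 without mouse 3 and 1143 of 28027 without the filter. The median log2 fold change of the 12 members with at least 1 CPM in beta cells was 0.19, and that of the 12547 tested genes with such a level was 0.04. In all 4 mice, 7 members had the higher value under the label NNAT-positive (11.4% of all genes) and 1, *Col28a1*, was lower (4.40%). The 7 that were higher in all 4 mice were *Lamc1*, *Lama5*, *Col6a6*, *Col8a1*, *Col8a2*, *Col9a2* and *Col20a1*. Alpha, delta and PP cell markers moved the same way. Both PP cell markers, *Ppy* and *Pyy*, and 1 of 3 delta cell markers were called higher under the label NNAT-positive. The sums of alpha, delta and PP cell markers were higher under this label within each of the 4 mice. Their means were 2853 and 1385 CPM for alpha, 1967 and 772 CPM for delta and 345 and 132 CPM for PP cells. The part of these cells in the members' differences was not tested. The endothelial marker sum was 6.69 to 14.7 CPM in the libraries labelled NNAT-positive and 5.17 to 11.8 CPM in those labelled NNAT-negative. As single genes, the 10 endothelial markers had a median log2 fold change of 3.78, and only 1 of them had a mean of at least 5 CPM in beta cells. The median was 1.27 for stellate and pericyte markers and 1.31 for leukocyte markers, against 0.05 over all tested genes. The sums of these lists were higher under the label NNAT-positive in 3, 2 and 1 of 4 mice, and their part was not tested.

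*Lamc1* had the firmest difference among the well expressed members. The libraries labelled NNAT-positive had a mean of 39.6 ± 5.32 CPM and those labelled NNAT-negative 31.4 ± 4.77 CPM (SD, *n*=4), and the ranges overlapped, with the former higher within each mouse. The log2 fold change was 0.34 (interval 0.14 to 0.54), with an adjusted *p* of 0.394 in the edgeR test. *Lama5* read 2.08, 1.54, 2.33 and 0.937 CPM and 1.81, 1.28, 1.05 and 0.683 CPM, a log2 fold change of 0.52 (interval 0.11 to 0.93, adjusted *p*=0.746, edgeR). *Col6a6* was higher within each mouse, by 0.27 on the log2 scale (interval −0.02 to 0.56). For *Col4a1* it was 0.06 (interval −0.14 to 0.27) and for *Col6a3* 0.12 (interval −0.27 to 0.50).

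The other members at an unadjusted *p* below 0.05 were below 1 CPM in every beta cell library. *Col1a1* read 0.534, 0.096, 0.236 and 0.0228 CPM under the label NNAT-positive and 0, 0, 0.0277 and 0.0547 CPM in those labelled NNAT-negative, 36 counts in all. *Col8a1* read 0.871, 0.336, 0.733 and 0.434 CPM against 0.239, 0.152, 0.721 and 0.191 CPM, and *Col8a2* 0.14, 0.624, 0.471 and 0.343 CPM against 0, 0, 0.194 and 0.164 CPM. *Col6a5* read 0.45, 0, 0.183 and 0.434 CPM and was at 0 in all 4 libraries labelled NNAT-negative. The 5 counts of *Col6a1* came from 1 library. At these levels a few RNA molecules decide the difference.

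**Figure D4:**
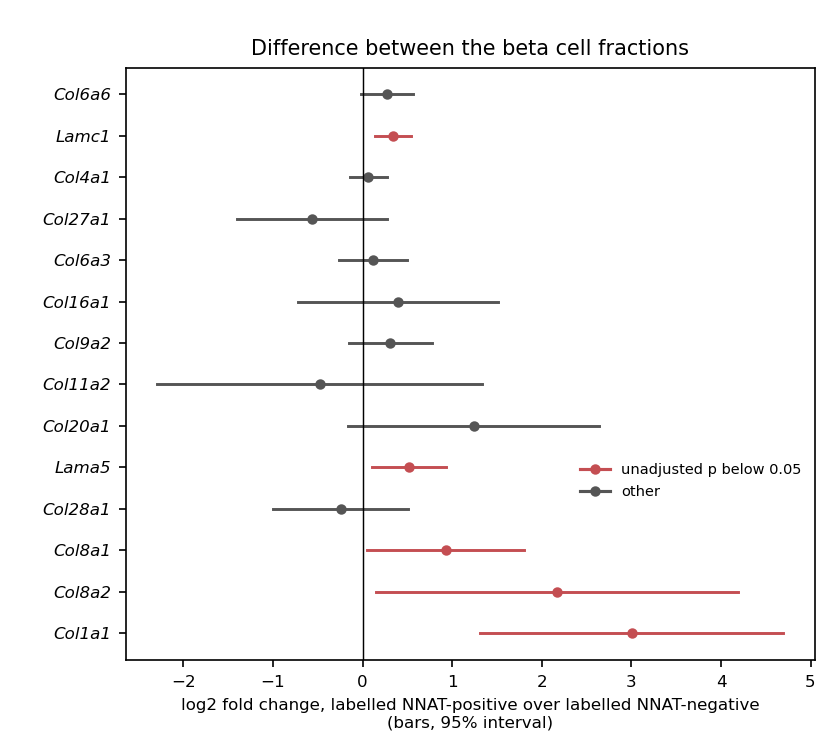
Log2 fold change (horizontal) of the libraries labelled NNAT-positive over those labelled NNAT-negative, with 95% intervals from the edgeR fit as bars, for members ordered by their mean level in beta cells from the highest at the top. Intervals are narrow and close to 0 for *Col6a6* and *Col4a1* and wide for the low members at the bottom. They lie above 0 for *Lamc1*, *Lama5*, *Col8a1*, *Col8a2* and *Col1a1*. *Col6a1* and *Col6a5*, at 0 in all libraries labelled NNAT-negative, are not plotted.

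The beta cell libraries also differed by mouse, and those of mouse 4 stood apart as a whole. They had counts for 21731 and 20434 genes against 15450 to 18129 in the other 6, and the lowest beta cell marker sums, with 163990 and 161270 CPM against 256560 to 399380 CPM. The part of this in the members' values was not tested. Both libraries of mouse 4 were above the other 6 beta cell libraries for 10 of 48 members (20.8%, against 18.7% of all tested genes) and below them for 2 (4.17%, against 15.8%). *Col27a1*, a fibril-forming chain of cartilage, read 42.4 and 57.4 CPM in the libraries of mouse 4 labelled NNAT-positive and NNAT-negative and 0.733 to 4.80 CPM in the other 6. *Col11a2*, another cartilage chain, read 13.4 and 14.5 CPM and at most 0.139 CPM in the other 6. *Col20a1* read 6.51 and 4.29 CPM and at most 0.73 CPM elsewhere, and *Col7a1* 2.28 and 2.30 CPM and at most 0.336 CPM. The means of mouse 4 were 17.3 times those of mice 1 to 3 for *Col27a1*, 12 times for *Col20a1*, 3.10 times for *Col28a1* and 1.89 times for *Col6a6*. The others of the 10 were *Col4a5*, *Col9a3*, *Col26a1* and *Lama3*, and no member of this group but *Col6a6* exceeded 5 CPM in beta cells of mice 1 to 3.

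In non-beta cells of mice 1 to 3, *Col27a1* read 9.92, 8.45 and 8.58 CPM, *Col20a1* 5.47, 7.15 and 8.01 CPM and *Col11a2* 0.432, 0.689 and 0.296 CPM. With the mouse as a block, which compares beta with non-beta cells within mice 1 to 3 only, *Col27a1* was called lower in beta cells (log2 fold change −1.75 ± 0.35, SE, edgeR adjusted *p*=0.00181) and *Col11a2* too (−3.07 ± 0.77, adjusted *p*=0.00688). Leaving out mouse 1, 2 or 4 ended the call of *Col11a2*, and leaving out mouse 3 that of *Col27a1*. Without the block these changes were 0.69 and 2.89 (adjusted *p*=0.682 and 0.334, edgeR), in the opposite direction, and that fit includes mouse 4, which has beta cell libraries only. *Nnat* was highest in mouse 4 in both fractions, at 101 and 153 CPM.

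**Figure D5:**
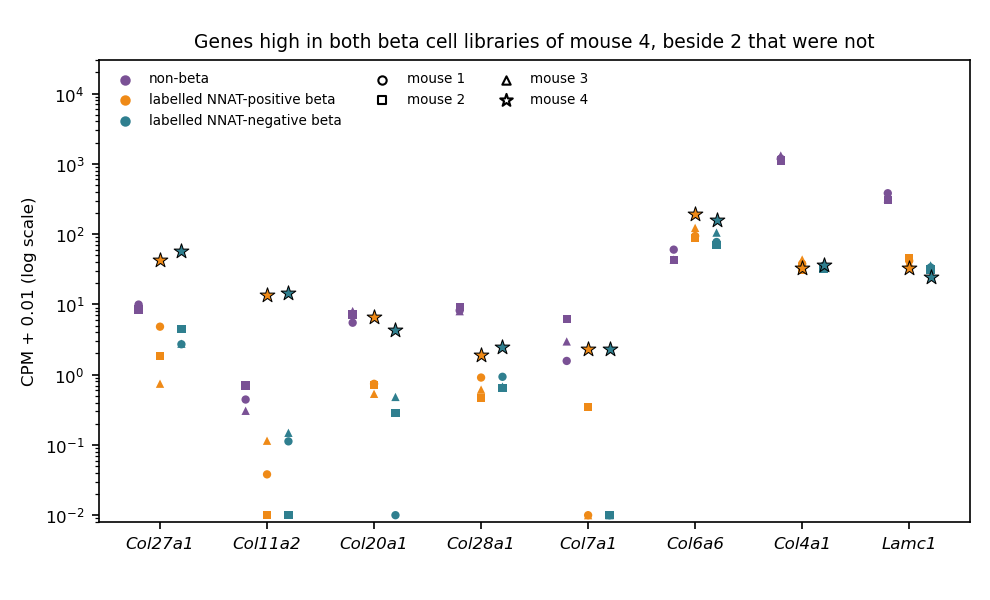
CPM + 0.01 (log scale) of 8 members in each library, with a symbol for each mouse and a colour for each fraction. The stars of mouse 4 lie above the other beta cell libraries for *Col27a1*, *Col11a2*, *Col20a1*, *Col28a1*, *Col7a1* and *Col6a6* and among them or below for *Col4a1* and *Lamc1*.

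Genes that work with collagens and laminins were described from lists. Of 7 other basement membrane proteins, 6 were called lower in beta cells and 1 higher, where 18.9% and 6.22% of all tested genes were. *Sparc*, a collagen-binding glycoprotein, had a mean of 1087 CPM in non-beta and 1.11 CPM in beta cells, *Hspg2* (perlecan) 838 and 0.945 CPM and *Nid1*, which links laminin to type IV collagen, 434 and 0.286 CPM. *Npnt* (nephronectin), an integrin ligand, was the gene that was higher, with 41.1 to 65.2 CPM in beta cells and 15, 18.8 and 22.4 CPM in non-beta cells (log2 fold change 1.41, edgeR adjusted *p*=4.46e-06). *Agrn* (agrin) read 12.8 CPM in beta cells and 109 CPM in non-beta cells.

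Of 23 genes for collagen folding, modification and crosslinking, 11 were called lower in beta cells and 12 were not called. Of all tested genes, 18.9% were called lower. The summed level of the 23 in beta cells was 98.1% of that in non-beta cells. The sum was led by *P4hb*, a subunit of prolyl hydroxylase that is also the disulphide isomerase of the endoplasmic reticulum, with 1543 CPM in beta and 877 CPM in non-beta cells. *P4ha1*, its catalytic partner, read 82.3 and 94.7 CPM. *Serpinh1*, the chaperone dedicated to collagen, had 6.13 CPM in beta and 249 CPM in non-beta cells (log2 fold change −5.71, edgeR adjusted *p*=3.61e-09). *Bmp1*, a procollagen proteinase, read 109 and 57.3 CPM, below the 2-fold limit. The extracellular crosslinkers *Lox* and *Loxl1* read 0.00327 and 0.203 CPM in beta cells against 37.2 and 56.1 CPM.

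Of 13 receptors, 9 were called lower in beta cells, where 18.9% of all tested genes were, and 4 were not called. *Itgb1*, the common integrin beta chain, had means of 258 CPM in beta and 562 CPM in non-beta cells, and *Itga6*, a laminin receptor chain, 26.2 and 75.4 CPM. *Itga3*, a second laminin receptor chain, read 52.4 and 65.0 CPM, *Dag1* (dystroglycan) 124 and 205 CPM and *Ddr1*, a collagen receptor kinase, 240 and 195 CPM, and these 3 were not called. *Ddr2*, *Itga1* and *Itga11*, receptors of mesenchymal cells, were below 1 CPM in every beta cell library. *Bcam*, a receptor for *Lama5*-containing laminins, had 9.89 and 145 CPM. Between the beta cell fractions its value under the label NNAT-positive was the higher one in 4 of 4 mice (log2 fold change 0.78, edgeR adjusted *p*=0.0825). The alpha, delta and PP cell marker sums were also higher under this label in 4 of 4 mice.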

How the data were processed

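According to the study's methods and the processing notes of the submitters, the authors made poly(A)-selected directional libraries, aligned reads to mm10 with STAR (version 2.7.1a) and deposited raw counts per gene without normalisation. The strand setting of the counting was not given in the sources used here, and exons that members share with other genes made up at most 6.27% of a member. Counts were analysed with edgeR 4.0.16 in R 4.3.3, by its quasi-likelihood test with TMM scaling, filterByExpr by fraction and the mouse as a block, over all 11 libraries and 17424 genes. The Benjamini-Hochberg adjustment ran over all tested genes, and a call needed both an adjusted *p* under 0.01 and a change over 2-fold. SEs came from dividing the log2 change by the root of *F*. Intervals used the total degrees of freedom of the quasi-likelihood test, which add prior to residual ones. Counting intervals and the floor of 3 counts cover counting error only.

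Levels per kb used exon lengths of gencode M21 on GRCm38, the build of mm10, which matched 55141 of 55401 gene identifiers. Samples were grouped by their labels. Replicate numbers pair libraries of one mouse, by the labels and the study's text. Deviations from the fraction means had a mean *r* of 0.321 over the 4 pairs from one mouse (range 0.194 to 0.658) and −0.105 over 12 others. Deviations within a fraction sum to 0, so the second mean largely follows from the first. Values per library were given for members with a mean of at least 5 CPM in a fraction, for those at an unadjusted *p* below 0.05 between the beta cell fractions and for those called higher in beta cells. Other genes were named from those with a mean of at least 50 CPM, not all of which are named. Markers were named where they stand beside a result. The genes of mouse 4, *Lox*, *Itga11* and the low members named by count were named after their values were seen. The members and gene lists were chosen with earlier results of these data known. Alternatives were other size factors, DESeq2 1.42.0, no filter, no block, the 10 most abundant genes left out, beta cell libraries alone, other thresholds, each beta cell fraction alone and each mouse left out. The test between the beta cell fractions was checked on simulated counts, with changes set only in genes of higher counts. The comparison of beta with non-beta cells was not checked in this way. Values of some members are not reported here, and the plots leave them out, while counts over members include them.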

Additional observations from a re-analysis of the deposited data

Results flagged for a closer look

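Within the fractions of 4 libraries, 24 groups of values of 13 members with a mean of at least 1 CPM were examined for a library that stood apart from the other 3, and 8 had one. Chance alone gives about 1 in 20 such groups, and of the 25086 groups of values of all genes at this level 2518 had one, 1260 of them with mouse 4 highest. In 7 of the 8 the library was that of mouse 4. *Col11a2* read 13.4 CPM in its library labelled NNAT-positive and 14.5 CPM in its library labelled NNAT-negative, *Col27a1* read 42.4 and 57.4 CPM, *Col20a1* read 6.51 and 4.29 CPM, and *Col28a1* read 2.43 CPM in the library labelled NNAT-negative. The eighth was *Col6a3* with 13.8 CPM in the library of mouse 2 labelled NNAT-positive, where the next value was 9.60 CPM. The 2 libraries of mouse 4 come from the same animal and are not independent of each other.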

How the results depend on the processing

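The count of members called lower in beta cells was 42 and stayed between 38 and 43 under all alternatives, with 39 to 40 when one mouse was left out. The count called higher was 0 and became 1, *Col6a6*, without the replicate block, at an adjusted *p* below 0.05 with no fold limit and with the libraries labelled NNAT-positive alone, and it ranged from 0 to 1 with one mouse left out, with 1 without mouse 1. The count called between the beta cell fractions was 0 under every alternative. Without the block, the change of *Col11a2* between beta and non-beta cells turned from −3.07 to 2.89 and that of *Col27a1* from −1.75 to 0.69, and *Col20a1* was no longer called (−2.07). *Col11a2* also lost its call without mouse 1, 2 or 4 (−1.99 to −3.52), and *Col27a1* without mouse 3 (−1.42). Between the fractions and with one mouse left out, *Col4a1* ranged from −0.023 (without mouse 3) to 0.099, *Col6a1* from −0.003 (without mouse 4) to 3.785 and *Col6a3* from −0.065 (without mouse 2) to 0.242. The cause of these was not tested. Members at an unadjusted *p* below 0.05 and higher in the libraries labelled NNAT-positive numbered 7. They were 2 with beta cell libraries alone, where *Col1a1*, *Col6a1*, *Col6a5* and *Col8a2* were not tested. They were 4 without the block and 11 without the filter or without mouse 3. Those lower numbered 0, with 2 without mouse 1 and 1 without mouse 2. *Col16a1* between beta and non-beta cells went from −3.20 to −2.14 without mouse 1. The libraries called in the opposite way in the study's table would turn the sign of each difference between the fractions. Of the other changes of named members, 242 kept their direction and their side of the adjusted *p* and fold limits. Members below 1 CPM in beta cells are limited by depth.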
